A study of Mus musculus with 6 samples.

Results

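The mRNAs of 8 replacement histone variants were examined in sorted DP (CD4+ CD8+ double positive) thymocytes, the immature T cells that fill most of the thymus. The 8 genes were chosen by symbol, as variant histones whose mRNAs carry a poly(A) tail, from the 23183 gene symbols in the 6 libraries, and all 8 were listed and were high enough to be tested. They were 5 variants of histone H2A (H2afz, H2afv, H2afx, H2afj and H2afy), both genes of the H3 variant H3.3 (H3f3a and H3f3b), and the linker histone variant H1f0.

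Nucleosomes wrap DNA around core histones, and a linker histone sits where DNA enters and leaves. The bulk of these proteins comes from replication-dependent histone genes, which lie in clusters, are transcribed in S phase and end their mRNAs in a conserved stem-loop in place of a poly(A) tail. Replacement variants are made throughout the cell cycle from spliced or unspliced polyadenylated mRNAs, and dedicated chaperones and remodellers place them outside replication, for example at promoters, at active genes or at DNA breaks.

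The libraries compared 2 genotypes of C57BL/6 mice aged 6 weeks, with 3 libraries each. WT mice were Nsrp1 f/f and cKO mice were Nsrp1 f/f with CD4Cre, so both carried the loxP-flanked allele of Nsrp1, the gene of the splicing factor NSrp70, and only cKO mice carried the Cre recombinase driven by the Cd4 promoter. A control with Cre and without the loxP-flanked allele is not among these libraries. No label says whether the libraries of a genotype came from separate animals, so p-values measure only the spread between these libraries. The question was how gene expression differs between NSrp70-deficient and WT DP thymocytes.

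The values were FPKM, in which fragment counts are divided by transcript length and by the mapped total. Nsrp1, listed under its older symbol Ccdc55, lay at 20.2, 20.7 and 21.1 FPKM in WT and at 17.7, 15.8 and 15.0 FPKM in cKO (log2 fold change -0.34, adjusted p = 0.00675, and 0.188 with the WT libraries averaged into 1 sample). The estimated depth was 20.6 to 20.8 M fragments (M, mega) per WT library and 13.1 to 20.6 M per cKO library. The FPKM values of a library added up to 521296 to 531517 in WT and 701396 to 850548 in cKO. Summed levels of gene lists and gene pairs were not scaled to these totals. The median squared difference was 1.28 to 1.31 times that expected from counting between WT libraries and 5.24 to 13.6 times between cKO libraries. WT is therefore given by its mean and range, and calls were repeated with the WT libraries averaged into 1 sample. WT libraries had Xist at a mean of 70.9 FPKM against 4.75 FPKM in cKO, whereas Ddx3y of the Y chromosome was listed at 0 in all WT libraries and had a mean of 31.0 FPKM in cKO, so sex and genotype cannot be told apart. The DP marker list (9 genes, Cd4, Cd8a, Rag1 and Dntt among them) summed to 4889 to 4974 FPKM in WT and 6755 to 8866 FPKM in cKO. Of its genes, 6 were called higher and 2 lower, but 0 and 0 with WT as 1 sample, 1 and 4 after quantile normalization and 2 and 3 with the same FPKM total in every library. Of all 10326 tested genes, 3693 were called higher and 3073 lower. These counts were 3475 and 3041 after quantile normalization and 902 and 6181 with the same FPKM total. Summed levels of the other marker lists were 129 to 130 FPKM against 101 to 125 FPKM for mature single positive cells (1 of 6 genes higher and 5 lower), 9.00 to 9.75 against 6.73 to 8.80 for double negative cells, 1.19 to 1.23 against 0.984 to 1.81 for B cells, 3.89 to 4.42 against 3.94 to 4.88 for myeloid and dendritic cells, and 3.56 to 3.89 against 1.92 to 3.64 for thymic epithelium, in which Foxn1 was at 0 throughout.

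Of the 8 variants, H2afz, H2afj and H3f3a were higher in cKO, H2afx was lower, and H2afv, H2afy, H3f3b and H1f0 did not pass the test. Among all 10326 tested genes, 35.8% were called higher and 29.8% lower at an adjusted p under 0.05, so 3 of 8 higher and 1 of 8 lower were shares close to, or under, the background. The median log2 fold change of the 8 variants was 0.17, beside 0.04 for all tested genes. The groups did not overlap for 4 of the 8 variants, against 72.5% of all tested genes. With the WT libraries averaged into 1 sample, none of the 4 calls passed. In RNA from a cell population, a lower value from fewer cells of a type and one from less RNA per cell cannot be told apart.

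**Figure D1:**
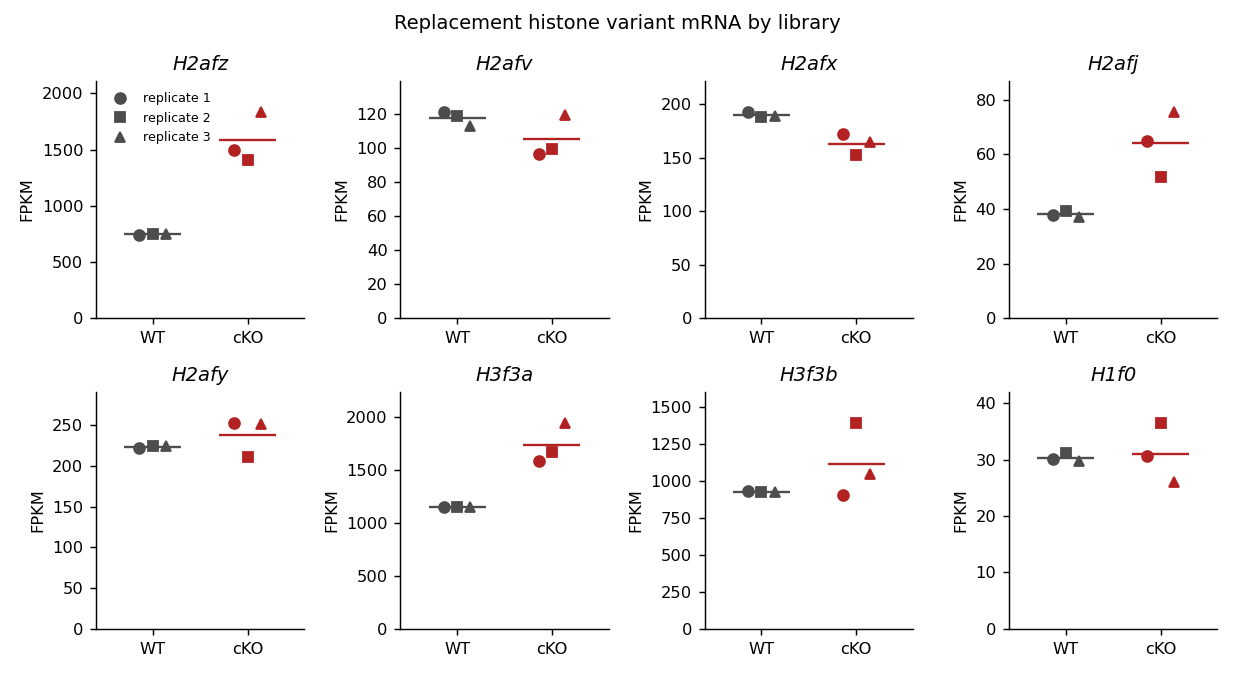
FPKM of the 8 replacement histone variants, 1 panel per gene with its own linear axis from 0. Points are libraries (shape gives the replicate number), horizontal lines are group means, WT in grey and cKO in red. The cKO libraries lie above all WT libraries for H2afz, H2afj and H3f3a and below them for H2afx, and the WT libraries lie close together in every panel.

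Levels spanned a wide range within both genotypes. In WT the order of mean FPKM was H3f3a (1148), H3f3b (926), H2afz (745), H2afy (224), H2afx (190), H2afv (118), H2afj (38.1) and H1f0 (30.3), and the ranges of neighbours in this order did not overlap. In cKO, H2afz moved past H3f3b to the place below H3f3a, and the ranges of H3f3a and H2afz overlapped, while all other neighbours stayed apart. The lowest library still held an estimated 746 fragments of H1f0 and 55068 fragments of H3f3a, for which counting alone gives a coefficient of variation of 3.7% and 0.43%. The measured coefficients of variation were 0.0784% to 3.66% over WT libraries and 6.24% to 22.4% over cKO libraries. The cKO libraries did not rank alike across the variants. Replicate 3 had the highest cKO value for H2afz, H2afv, H2afj and H3f3a, replicate 2 had the highest for H3f3b and H1f0, and replicate 1 had the highest for H2afx and H2afy.

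H2A.Z replaces H2A in nucleosomes beside promoters and is encoded by a pair of genes, H2afz (H2A.Z.1) and H2afv (H2A.Z.2). H2afz lies on the plus strand of chr3:137864487-137866922 (GRCm38) and H2afv on the minus strand of chr11:6427229-6444443. Their longest coding transcripts have 5 exons each, and their 128-residue proteins share 125 residues, whereas the coding sequences are identical at 304 of 384 bases and the longest run shared by the transcripts is 14 bases. The promoters are shown because the pair encodes nearly identical proteins. Any part of promoter sequence in the mRNA levels was not tested. Each sequence (RefSeq, GRCm38.p6) runs from 250 bases before the transcription start to 50 bases after it, with capitals marking the letters CCAAT on either strand.
H2afz promoter, chr3:137864237-137864536, plus strand: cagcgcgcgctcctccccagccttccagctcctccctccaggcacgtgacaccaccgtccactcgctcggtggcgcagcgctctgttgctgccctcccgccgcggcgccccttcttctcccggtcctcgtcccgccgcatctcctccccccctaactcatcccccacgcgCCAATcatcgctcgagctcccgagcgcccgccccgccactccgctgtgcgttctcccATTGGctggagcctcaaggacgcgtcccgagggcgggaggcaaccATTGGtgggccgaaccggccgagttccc
H2afv promoter, chr11:6444394-6444693, minus strand: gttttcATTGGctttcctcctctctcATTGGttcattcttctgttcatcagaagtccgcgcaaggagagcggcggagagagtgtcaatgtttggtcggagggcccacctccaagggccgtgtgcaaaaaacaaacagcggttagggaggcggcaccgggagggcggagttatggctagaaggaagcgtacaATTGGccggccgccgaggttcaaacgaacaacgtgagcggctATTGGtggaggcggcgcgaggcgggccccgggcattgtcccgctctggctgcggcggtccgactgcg
The H2afz window held 3 CCAAT matches and the H2afv window 4, and 37.4% of 32851 promoters held at least 1. The GC box letters GGGCGG matched at 2 places in H2afz and 1 in H2afv, against 35.7% of all promoters with a match. Neither window held TATAAA (13.6% of promoters) or any of the E2F letters TTTCCCGC, TTTCGCGC, TTTGGCGC or TTTGCCGC (2.26%), searched on both strands.

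H2afz had 740, 745 and 751 FPKM in the WT libraries and 1497, 1411 and 1835 FPKM in the cKO libraries. All cKO values were far above the WT values, which differed little from each other. The cKO mean was 1581 ± 224 FPKM (SD, n = 3), 2.12-fold the WT mean, with a log2 fold change of 1.07 ± 0.13 (SE, 95% interval 0.77 to 1.38, adjusted p = 0.000533). This placed H2afz at percentile 97.1 of the changes of all tested genes. The adjusted p was 0.0607 with WT as 1 sample. The size of the rise depended on the scaling, falling to a log2 fold change of 0.30 after quantile normalization, 0.51 with libraries scaled to the same FPKM total and 0.50 once GC content and transcript length were corrected for, with adjusted p-values of 0.00762, 0.000806 and 0.0033. The transcript shares 33.2% of its 50-base windows with transcripts of 4 other genes, so the value also depends on how such reads were counted.

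H2afv had 121, 119 and 113 FPKM in WT and 96.4, 99.5 and 120 FPKM in cKO. The groups overlapped through cKO replicate 3, and the other cKO libraries lay below all WT libraries. The log2 fold change was -0.17 ± 0.10 (SE, 95% interval -0.40 to 0.06, adjusted p = 0.165). Without cKO replicate 3 it was -0.27 with an adjusted p of 0.0145. Quantile normalization gave -0.52, the same FPKM total -0.73 and the GC and length correction -0.55, each past the threshold (adjusted p = 0.000897, 0.00023 and 0.00111). No 50-base window of H2afv occurred in a transcript of another gene.

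The share of H2afz in the summed H2A.Z FPKM does not depend on any scaling factor of a library. It was 85.9%, 86.2% and 86.9% in WT and 94.0%, 93.4% and 93.9% in cKO. All cKO libraries lay above all WT libraries, and the spread within a genotype was small beside the gap. The difference was 7.39 percentage points, from a WT mean of 86.4% to 93.7% ± 0.289 (SD, n = 3), and the exact two-sided permutation test gave p = 0.1, the smallest value that 3 against 3 libraries allow. The ratio of H2afz to H2afv was 6.10, 6.26 and 6.64 in WT and 15.5, 14.2 and 15.3 in cKO. The summed H2A.Z level rose from a mean of 863 FPKM (861 to 864) to 1686 ± 236 FPKM (SD, n = 3, exact permutation p = 0.1, again the smallest possible). Unlike the share, this sum was not scaled to the FPKM total of a library, which was also higher in cKO.

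**Figure D2:**
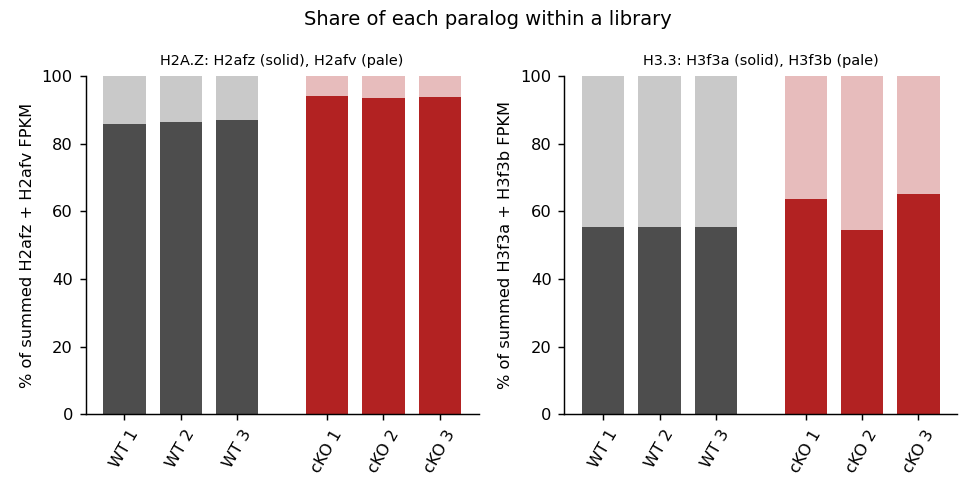
Share of each paralog in the summed FPKM of its pair, in percent, 1 bar per library (WT grey, cKO red). The solid H2afz share is 85.9% to 86.9% in WT and 93.4% to 94.0% in cKO, and the solid H3f3a share is 55.2% to 55.4% in WT and 54.5% to 65.0% in cKO, so the right panel's groups overlap.

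H3.3 replaces the replication-dependent H3 at active genes, enhancers and telomeres. H3f3a lies on the minus strand of chr1:180800832-180813943 and H3f3b on the minus strand of chr11:116021912-116027962. Their products are the same protein, identical at all 136 residues, yet the coding sequences match at only 313 of 408 bases and the transcripts share no run longer than 23 bases. Their promoters differed in the letters searched, with 1 CCAAT match, 6 GC box matches and no TATAAA for H3f3a, and 4 CCAAT matches, no GC box and TATAAA beginning 27 bases before the start for H3f3b.

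H3f3a had 1148, 1147 and 1149 FPKM in WT and 1586, 1670 and 1946 FPKM in cKO. Every cKO library was higher than every WT library. The cKO mean of 1734 ± 188 FPKM (SD, n = 3) was 1.51-fold the WT mean, a log2 fold change of 0.59 ± 0.12 (SE, 95% interval 0.30 to 0.88, adjusted p = 0.00468). The rise was not called with WT as 1 sample (adjusted p = 0.216) or with the same FPKM total (log2 fold change 0.03, adjusted p = 0.796), and quantile normalization turned its sign (-0.18, adjusted p = 0.196). The GC and length correction gave 0.32 (adjusted p = 0.0357). Of the 50-base windows of H3f3a, 14.9% occurred in transcripts of 38 other genes.

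H3f3b had 930, 923 and 925 FPKM in WT and 907, 1393 and 1047 FPKM in cKO. The groups overlapped because cKO replicate 1 was below WT, while replicate 2 was well above it. The log2 fold change was 0.24 ± 0.16 (SE, 95% interval -0.14 to 0.63, adjusted p = 0.22). Single cKO libraries moved it, to 0.08 without replicate 2 (adjusted p = 0.337) and 0.38 without replicate 1 (adjusted p = 0.0577). It was -0.47 after quantile normalization, -0.32 with the same FPKM total and -0.06 after the GC and length correction.

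The share of H3f3a in the summed H3.3 FPKM was 55.2%, 55.4% and 55.4% in WT and 63.6%, 54.5% and 65.0% in cKO. Replicate 2 of cKO lay below the WT libraries and the other cKO libraries above them. The difference of 5.70 percentage points did not pass the exact two-sided permutation test (p = 0.4). It was 8.96 percentage points without cKO replicate 2 and 3.72 without cKO replicate 3. The summed H3.3 level was 2078, 2070 and 2074 FPKM in WT and 2494, 3063 and 2993 FPKM in cKO, with no overlap (exact permutation p = 0.1, the smallest possible). This sum was not scaled to the FPKM total of a library, which was 521296 to 531517 in WT and 701396 to 850548 in cKO. The sum therefore does not show a rise beyond that of the total.

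H2A.X carries a C-terminal serine that DNA damage kinases phosphorylate beside double-strand breaks, a mark that also forms during antigen receptor gene rearrangement in DP thymocytes. Its gene, H2afx, is a single exon on the plus strand of chr9:44334694-44336077. H2afx is known to end its mRNA either at a replication-dependent stem-loop or at a downstream poly(A) site, and the stem-loop letters are shown because this sets it apart from the other variants. They lie in the 3′ UTR, 46 bases past the stop codon, at chr9:44335240-44335255, with the 16 bases of the stem and loop in capitals (reference transcript, 5′ to 3′).
H2afx stem-loop: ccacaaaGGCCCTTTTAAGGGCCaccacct
The letters searched were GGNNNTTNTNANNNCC with 6 base pairs in the stem and a loop of 4 bases, on the sense strand. A gene was counted if any of its coding transcripts held them. They were found in 1 of the 8 variants, in 46 of 67 replication-dependent histone genes (68.7%) and in 65 of 20457 coding genes (0.318%).

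H2afx had 193, 188 and 189 FPKM in WT and 172, 152 and 164 FPKM in cKO. The cKO values sat beneath the WT values without overlap, by a small margin. The cKO mean of 163 ± 10.2 FPKM (SD, n = 3) was 0.858 of the WT mean, a log2 fold change of -0.22 ± 0.08 (SE, 95% interval -0.40 to -0.04, adjusted p = 0.0375). The call was lost with WT as 1 sample (adjusted p = 0.428), without any single WT library (0.107 to 0.136), without cKO replicate 3 (0.0507) and after the GC and length correction (log2 fold change -0.03, adjusted p = 0.71). Quantile normalization gave -0.66 and the same FPKM total -0.78. Of its 50-base windows, 6.14% occurred in replication-dependent histone transcripts.

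H2A.J is an H2A variant that differs from replication-dependent H2A mainly at its C-terminus. H2afj, whose coding transcript has 1 exon, lies on the plus strand of chr6:136808244-136810074, and 118 of its 129 residues align with identical residues of H2A.X. H2afj had 37.8, 39.4 and 37.1 FPKM in WT and 65.0, 51.9 and 75.6 FPKM in cKO. The cKO libraries were all higher and were spread more widely than the WT libraries. The cKO mean of 64.2 ± 11.9 FPKM (SD, n = 3) was 1.69-fold the WT mean, a log2 fold change of 0.72 ± 0.13 (SE, 95% interval 0.41 to 1.04, adjusted p = 0.00281). The rise was not called with WT as 1 sample (adjusted p = 0.0695) or with the same FPKM total (0.17, adjusted p = 0.119), and was 0.54 after quantile normalization and 0.72 after the GC and length correction. Few of its 50-base windows (0.281%) occurred in replication-dependent histone transcripts.

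MacroH2A1, encoded by H2afy on the minus strand of chr13:56073619-56136361, carries a large non-histone domain and is abundant in silent chromatin such as the inactive X chromosome. H2afy had 222, 225 and 224 FPKM in WT and 253, 210 and 252 FPKM in cKO. Replicate 2 of cKO was below all WT libraries and the other cKO libraries were above them. The log2 fold change was 0.09 ± 0.10 (SE, 95% interval -0.14 to 0.31, adjusted p = 0.461). It passed the test without cKO replicate 2 (0.18, adjusted p = 0.00667), and it reversed after quantile normalization (-0.42, adjusted p = 0.0013) and with the same FPKM total (-0.47, adjusted p = 0.000571).

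H1.0, the linker histone known to accumulate in differentiated and resting cells, is encoded by the single-exon gene H1f0 on the plus strand of chr15:79028450-79030504. H1f0 had 30.1, 31.1 and 29.7 FPKM in WT and 30.6, 36.6 and 26.0 FPKM in cKO. Values of cKO lay on both sides of WT. The log2 fold change was 0.02 ± 0.12 (SE, 95% interval -0.25 to 0.29, adjusted p = 0.887). It was -0.09 without cKO replicate 2 (adjusted p = 0.303), 0.14 without cKO replicate 3 (adjusted p = 0.217) and -0.52 with the same FPKM total (adjusted p = 0.0265).

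**Figure D3:**
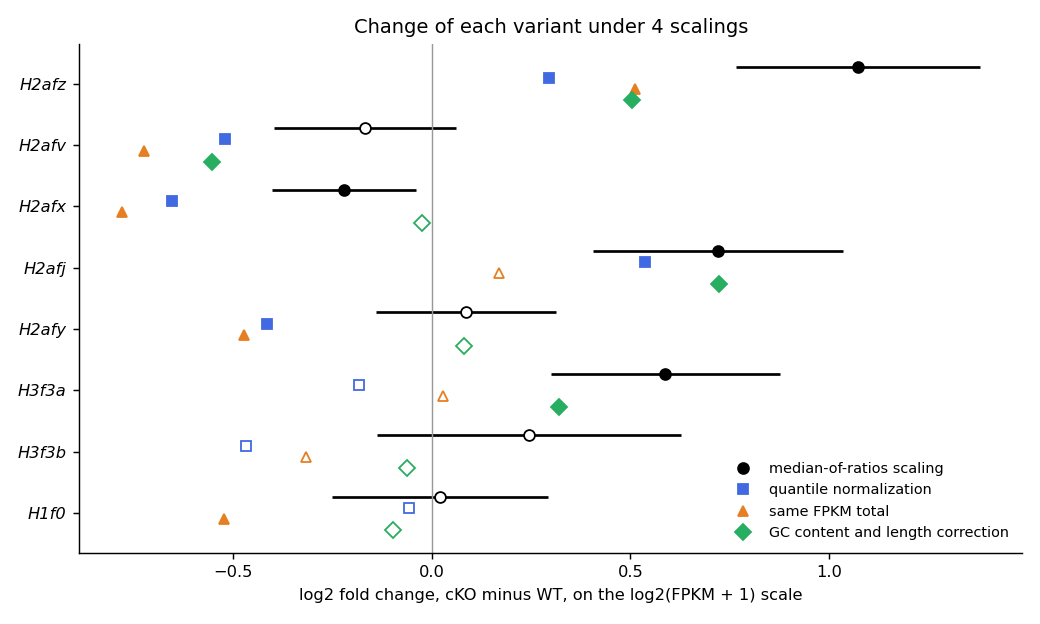
Log2 fold change (cKO minus WT, on the log2(FPKM + 1) scale) of each variant under 4 scalings. Filled symbols passed an adjusted p of 0.05, open symbols did not, and bars are 95% intervals of the median-of-ratios fit. H2afz and H2afj stay above 0 and H2afv and H2afx below 0 under each scaling, whereas H2afy, H3f3a, H3f3b and H1f0 lie on both sides.

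Across the 4 scalings drawn in the plot of log2 fold changes, H2afz (0.30 to 1.07) and H2afj (0.17 to 0.72) stayed positive, and H2afx (-0.78 to -0.03) and H2afv (-0.73 to -0.17) stayed negative. The same FPKM total moved the median of all tested genes to -0.45, and H2afx, H2afv, H2afy and H1f0 lay below that median. The variants called lower then numbered 4 and the higher ones 1, beside 6181 lower and 902 higher of all 10326 tested genes. Quantile normalization gave 3 lower and 2 higher, beside 3041 lower and 3475 higher of all tested genes.

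The replication-dependent histone genes served as a comparison of mRNAs that mostly lack a poly(A) tail, from libraries prepared by poly(A) selection. Of 68 such genes, 56 were high enough to be tested, and 55 were called higher and 0 lower in cKO by limma (19 and 0 with WT as 1 sample), with a median log2 fold change of 2.38. Of all tested genes, 35.8% were called higher and 29.8% lower. The summed level of the replication-dependent genes was 681 to 693 FPKM in WT and 5916, 1712 and 2204 FPKM in cKO replicates 1, 2 and 3. H3f3a and H3f3b had their lowest cKO values in replicate 1, the library in which this sum was highest, while H2afx and H2afy had their highest cKO values there. The largest change among the variants, 1.07 for H2afz, was smaller than the median of 2.38.

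**Figure D4:**
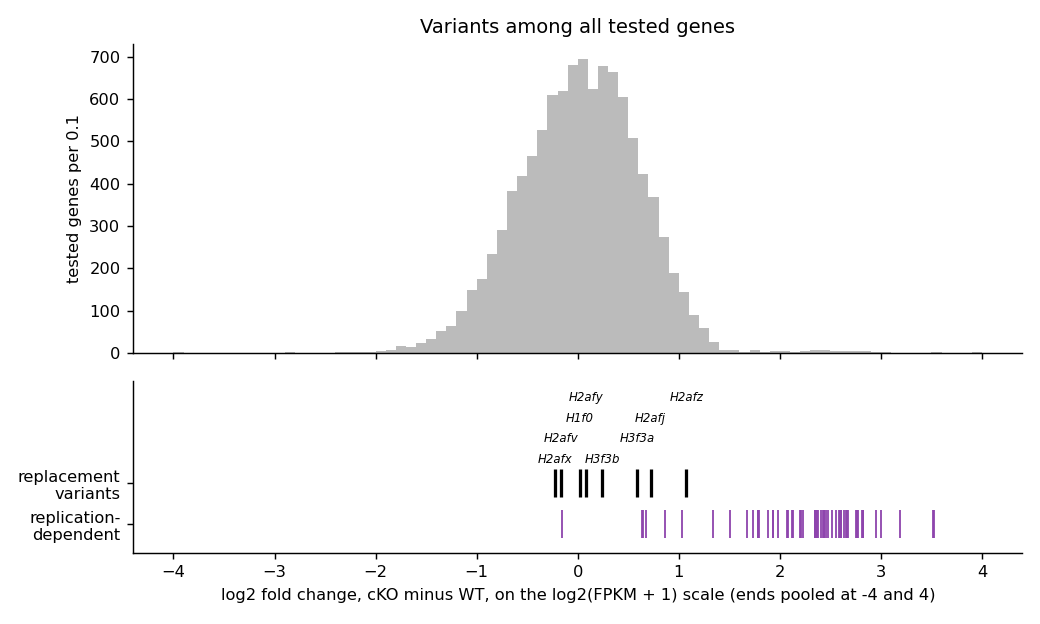
Upper panel, number of tested genes in bins of 0.1 of the log2 fold change (cKO minus WT, log2(FPKM + 1) scale); lower panel, each replacement variant (black) and each tested replication-dependent histone gene (purple). The variants lie between -0.22 and 1.07, with H2afz, the highest, at percentile 97.1 of tested genes. The median of the replication-dependent genes is 2.38.

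Other variant histone genes were expressed at low or moderate levels. Cenpa, the centromeric H3 variant, had 60.3, 59.0 and 60.1 FPKM in WT and 71.5, 87.9 and 79.7 FPKM in cKO. Its log2 fold change of 0.40 ± 0.08 (SE, adjusted p = 0.00445) became -0.15 with the same FPKM total and -0.04 after the GC and length correction, and its adjusted p was 0.152 with WT as 1 sample. The linker variant H1fx fell from 22.1 FPKM (21.5 to 22.8) to 14.6 ± 3.72 FPKM (SD, n = 3), which is -0.60 on the log2 scale (adjusted p = 0.0127, or 0.139 with WT as 1 sample). H2afy2, the second macroH2A gene, and the germ cell linker histones H1foo and H1fnt were too low to test, at no more than 0.0567, 0.336 and 0 FPKM.

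The machinery that places the variants, or forms the 3′ ends of their replication-dependent relatives, was followed through 42 genes in 6 roles, all of which were tested. In cKO, 22 were called higher and 10 lower, beside 35.8% and 29.8% of all tested genes. The median log2 fold change was 0.348 (0.04 over all tested genes), and 0.353 with WT as 1 sample. Averaging the WT libraries nearly keeps their mean, so medians hardly move by construction, here and in each role below. Such paired values are no check of the medians. The same FPKM total gave 8 higher and 19 lower, beside 902 and 6181 of all 10326 tested genes. The median was then -0.19 against -0.45 for all tested genes.

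Of the 6 H3.3 deposition genes, none was called higher by limma and 4 were called lower, beside 35.8% and 29.8% of all tested genes. Their median log2 fold change was -0.34 in that fit, and -0.33 with WT as 1 sample, which hardly moves a median by construction. Quantile normalization and the same FPKM total each gave 6 lower, beside 3041 and 6181 of all 10326 tested genes. The GC and length correction gave only 3 lower, beside 2738 of 10260 genes. It brought Cabin1 to -0.47 and Hira to -0.5. Ubn1 (0.15) and Daxx (0.11) became positive without being called, and the other genes stayed negative. Cabin1, a subunit of the HIRA complex, had 19.3, 19.2 and 19.5 FPKM in WT and 9.24, 8.46 and 7.65 FPKM in cKO (log2 fold change -1.11 ± 0.08 SE, adjusted p = 0.000114). Hira, the H3.3 chaperone itself, had 18.8, 19.1 and 18.4 FPKM in WT and 10.5, 11.7 and 9.58 FPKM in cKO (-0.77 ± 0.08 SE, adjusted p = 0.000307). Both genes kept groups that were far apart, and none of the 6 genes was called higher under the other 3 scalings.

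The 12 genes of H2A.Z exchange and removal split, with 6 higher and 4 lower, beside 35.8% and 29.8% of all tested genes. Their median log2 fold change was 0.28, or 0.29 with WT as 1 sample. With the same FPKM total 3 were higher and 6 lower, beside 902 and 6181 of all 10326 tested genes. Ruvbl1, an ATPase shared by the SRCAP, TIP60 and INO80 complexes, rose from 26.6 FPKM (26.0 to 27.7) to 59.2 ± 8.82 FPKM (SD, n = 3, log2 fold change 1.11, adjusted p = 0.0003). Actl6a, an actin-related subunit of several remodellers, rose from 47.4 FPKM (46.8 to 48.2) to 81.8 ± 5.54 FPKM (SD, n = 3, 0.77, adjusted p = 0.000237). Srcap, the ATPase that inserts H2A.Z and was picked after its values were seen, had 31.4, 31.7 and 31.0 FPKM in WT and 15.5, 15.0 and 11.3 FPKM in cKO (-1.13, adjusted p = 0.000302). Ruvbl1 and Actl6a thus rose while Srcap fell.

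Chaperones that serve several histones had 5 of 7 genes higher and 0 lower by limma, beside 35.8% and 29.8% of all tested genes. The median of the 7 was 0.499, or 0.505 with WT as 1 sample. With the same FPKM total 2 were higher and 1 lower, beside 902 and 6181 of all 10326 tested genes. Asf1b, an H3-H4 chaperone, rose from 35.4 FPKM (34.3 to 36.5) to 68.0 ± 5.95 FPKM (SD, n = 3, log2 fold change 0.92, adjusted p = 0.000178), and Nasp, which holds soluble H3-H4, rose from 67.0 FPKM (66.6 to 67.7) to 128 ± 14.3 FPKM (SD, n = 3, 0.91, adjusted p = 0.000322). Of the 4 replication-coupled assembly genes, 3 were higher, beside 35.8% of all tested genes, with a median of 0.589 (0.595 with WT as 1 sample). They included Chaf1b, a subunit of CAF-1, at 15.7 FPKM (15.0 to 16.3) in WT and 36.4 ± 9.36 FPKM (SD, n = 3) in cKO (1.13, adjusted p = 0.00167), and Rbbp7, a histone-binding WD40 protein, at 71.7 FPKM (69.8 to 73.0) in WT and 129 ± 11.6 FPKM (SD, n = 3) in cKO (0.83, adjusted p = 0.000321).

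Of 6 genes for kinases that phosphorylate H2A.X or proteins that read the mark, 3 were higher, with a median of 0.24, beside 35.8% of all tested genes. Quantile normalization gave 5 higher and 0 lower, beside 3475 and 3041 of all 10326 tested genes. Among all tested genes, the same FPKM total called 902 higher and 6181 lower. By limma, 0 were higher with WT as 1 sample, and 0 were higher and 3 lower with the same FPKM total. Rnf8, a ubiquitin ligase recruited to the mark, had 14.3, 15.4 and 15.6 FPKM in WT and 21.6, 20.7 and 21.9 FPKM in cKO (log2 fold change 0.48, adjusted p = 0.000828, and 0.0722 with WT as 1 sample). Prkdc, the catalytic subunit of DNA-PK, rose from 4.83 FPKM (4.71 to 4.91) to 6.43 ± 0.394 FPKM (SD, n = 3, 0.35, adjusted p = 0.00508, and 0.17 with WT as 1 sample), and both genes turned negative with the same FPKM total (-0.06 and -0.13). Of 7 genes for 3′ end processing of replication-dependent histone mRNA, 5 were higher and 2 lower, beside 35.8% and 29.8% of all tested genes. Their median was 0.570, or 0.575 with WT as 1 sample. With the same FPKM total 1 was higher and 2 lower, beside 902 and 6181 of all 10326 tested genes. Slbp, the protein that binds the stem-loop, had 76.0, 79.4 and 79.7 FPKM in WT and 138, 182 and 173 FPKM in cKO (1.05, adjusted p = 0.000303), and Casp8ap2, a component of histone locus bodies, rose from 17.5 FPKM (17.1 to 17.7) to 26.5 ± 0.999 FPKM (SD, n = 3, 0.57, adjusted p = 0.000366, and 0.0518 with WT as 1 sample).

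**Figure D5:**
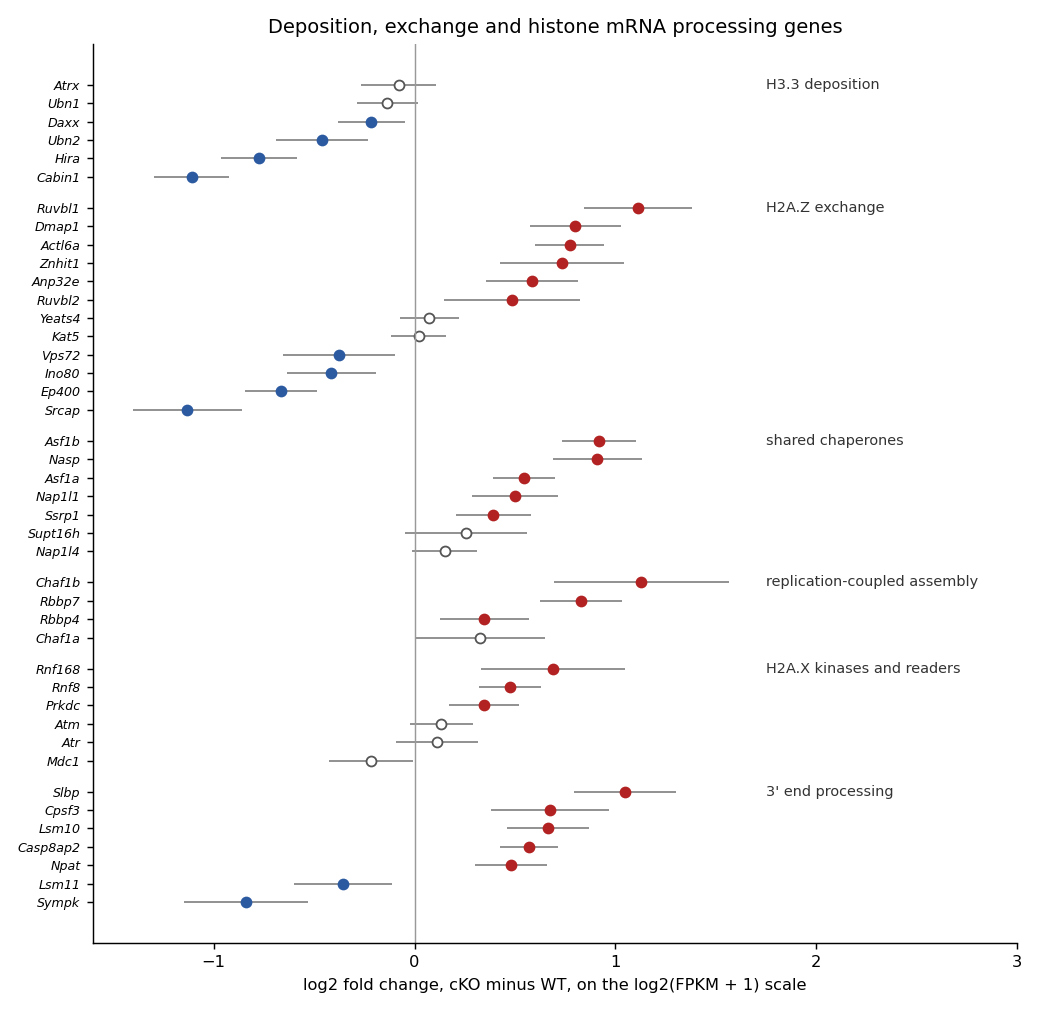
Log2 fold change (cKO minus WT, log2(FPKM + 1) scale) of 42 genes in 6 roles with 95% intervals. Red points were called higher, blue lower, and open points were not called. All points of the H3.3 deposition group lie below 0, and the H2A.Z exchange group holds both directions.

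Cell cycle lists were compared as well, and a link between them and the genes above was not tested. All 10 S phase genes were higher in cKO, with a summed level of 939 to 948 FPKM in WT and 1840 to 2139 FPKM in cKO and a median log2 fold change of 1.01, close to that of H2afz. All 10 G2/M genes were higher too, with a median of 1.06. Of all tested genes, 35.8% were called higher. With WT as 1 sample, 9 S phase and 7 G2/M genes were higher, and the same FPKM total left 9 S phase genes higher and 7 G2/M genes higher with 2 lower. Erythroid markers were also higher in cKO, at a summed 12.3 to 26.6 FPKM against 1.96 to 2.72 FPKM, with 2 genes tested and called, both globins. The part of cycling cells, of erythroid RNA and of sex in the variants' values was not tested.

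H2afz had the smallest adjusted p of the 8 variants, and the 5 genes most like it over the 6 libraries, by Pearson's r of log2(FPKM + 1), were Tceb2 (r = 0.99972), Mrpl18 (0.99945), Rps25 (0.99941), Psmb3 (0.99939) and Hdac1 (0.99935). The 6 points fall into the genotypes, so these values mainly describe a shared step between WT and cKO. The log2 fold changes of the 5 genes were 1.21, 1.04, 0.97, 0.95 and 0.58.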

How the data were processed

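Poly(A)-enriched, strand-specific libraries of sorted DP thymocytes were sequenced as paired-end reads. Reads were trimmed and aligned to the mm10 genome by TopHat, and the authors deposited FPKM values from Cufflinks for each gene symbol and library. Tool versions, the gene annotation and the treatment of reads that map to several places are not given in the sources used here. The study tested gene counts with DESeq2, which could not be repeated on FPKM.

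The 8 genes and the other lists were chosen with earlier results of these data known. Values were divided by median-of-ratios size factors (1.002 to 1.015), and genes reaching 1 FPKM in 3 or more libraries (10326) were kept, and their log2(FPKM + 1) was fitted by genotype with limma 3.58.1 (lmFit, eBayes with trend) in R 4.3.3, with Benjamini-Hochberg adjustment over all tested genes. Fold changes on this scale understate the change of low genes. In simulated data for cKO against WT on 10326 genes, calls were made for 90 of 100 genes with a 2-fold change, 100 of 100 with a 4-fold change and 10 of 10126 unchanged genes. The simulated noise was independent between genes and libraries, with the same SD in both genotypes, and low genes were not given changes. These rates need not hold for the real libraries, where cKO varied more than WT. Paralog shares were compared by exact permutation over libraries. The number of mapped fragments was inferred from the FPKM worth of 1 fragment at 2521 single-transcript coding genes with an assumed fragment length of 200, and 70.1% to 79.1% of values came within 0.1 of a whole number, so intervals from counting are approximate. Named genes were the 8 variants, Nsrp1, other variant histone genes, 2 genes per role of the deposition list, by smallest adjusted p, and the 5 genes most like the variant with the smallest adjusted p. Gene positions, transcripts and windows came from GENCODE (GRCm38, the assembly of mm10), and promoters from RefSeq, which matched 7 of the 8 variants (H2afx was not matched). Alternatives were another pseudocount (0.1), no filter or a stricter one, no further scaling, quantile normalization, the same FPKM total, limma without trend, a replicate block, WT as 1 sample, a correction by splines of GC content and length, and leaving out each library. Same-numbered WT and cKO libraries did not deviate together (r = -0.0223, 0.0385 and 0.0309), so replicate numbers were not treated as pairs. Python 3.11.15, numpy 2.4.6, pandas 2.3.3, scipy 1.17.1 and matplotlib 3.10.9 were used.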

Additional observations from a re-analysis of the deposited data

How the results depend on the processing

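Another pseudocount, both other filters, no further scaling and limma without trend changed no call of the 8 variants. With libraries scaled to the same FPKM total, 1 variant was higher and 4 lower, 8 and 19 deposition genes were higher and lower, and 902 and 6181 of all tested genes, against 3693 and 3073. With WT as 1 sample, 0 variants were higher and 0 lower (limma), 9 and 4 deposition genes, and 860 and 909 of all tested genes. Quantile normalization called 3 variants lower, beside 3041 of all tested genes. The paired fit with a replicate block called 0 variants lower, since H2afx was no longer called (adjusted p = 0.0899), and 3 higher. Leaving out 1 library gave 0 to 1 variants called lower, 0 without any single WT library. Log2 fold changes that turned negative were those of H2afy (-0.42 after quantile normalization, -0.47 with the same FPKM total), H3f3a (-0.18 after quantile normalization), H3f3b (-0.47 after quantile normalization, -0.32 with the same FPKM total, -0.06 after the GC and length correction) and H1f0 (-0.52 with the same FPKM total, -0.06 after quantile normalization, -0.10 after the GC and length correction, -0.09 without cKO replicate 2). The H2afz share of H2A.Z rose by 4.90 percentage points after quantile normalization and 6.28 after the GC and length correction, against 7.39. The cause of these shifts was not tested. At the estimated depth, the counting error of each variant was below its spread over cKO libraries. The part of depth in the difference between genotypes was not tested.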
